A study of Rana pirica with 14 samples.

Results

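Tail tissue of Rana pirica tadpoles kept for 8 days with a caged larva of the dragonfly Aeshna nigroflava (Drago, n = 3 arrays) was compared with tail tissue of tadpoles kept for 8 days without a predator (Cont, n = 2 arrays). These 5 arrays were chosen by their labels out of the 14 arrays of the series, and all probe sets other than those of added control transcripts entered the comparison, 15491 of 15611. The 9 remaining arrays, 3 each of tadpoles kept with salamander larvae and of tadpoles from which either predator was taken away, are used here only for the estimate of the spread and as a backdrop. All tadpoles came from field-collected eggs and had no hind limbs yet. The methods describe tails from 10 tadpoles of each of 4 aquaria as combined within a treatment before RNA was extracted, which reads as 1 pool per treatment, whereas the labels call its arrays biological replicates. The spread between arrays of a treatment, and every p-value that rests on it, may therefore be technical. Aquaria cannot be told apart in a pool, and a whole tail holds muscle, fin epidermis, nerve, notochord and blood. In such tissue fewer cells of a type and less RNA per cell cannot be told apart.

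Tadpoles of many frogs change the shape of the tail when a predator is near, a reversible defence called an inducible phenotype. Dragonfly larvae are sit-and-wait hunters that seize tadpoles with an extensible lower jaw, and tadpoles raised beside them commonly grow deeper tail fins. A tail fin is a double sheet of epidermis over a basement membrane of laminins and type IV collagen, filled with a loose matrix of fibrillar collagens and proteoglycans, and its growth draws on cell division and on BMP, Wnt and FGF signals. The comparison asks which transcripts of the tail differ while the dragonfly larva is present.

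Labelled RNA was hybridized to an array designed for another frog, Xenopus laevis. The values are log2 signals centred so that the 14 arrays of a probe set have a median of 0, and the level of a transcript is therefore not known. A difference of 1 is 2 fold and a difference of 2.32 is 5 fold. The suffixes .L and .S mark the 2 copies of a gene that Xenopus laevis carries, on the longer and the shorter of paired chromosomes, and which Rana pirica transcript a probe set reads was not tested. A copy named below is therefore that of the Xenopus laevis probe set and is not known as a gene copy of Rana pirica. Defining markers of the tail could not be checked for their presence on this scale. In limma, fitted over all 14 arrays with 1 mean per group, 0 of the 15491 probe sets passed a Benjamini-Hochberg adjusted p of 0.05 (0%), and the smallest adjusted p was 0.601. At an unadjusted p of 0.05, called the nominal level here, limma gave 876 probe sets (5.65%), of which 465 lay higher (3.0%) and 411 lower (2.65%) in Drago, where 775 are expected with no difference at all. An ordinary test on the 5 arrays gave 846 at the nominal level and 0 after adjustment. The median standard error of a difference was 0.86, and the 95% interval reached a median of 1.84 to either side, so that a typical probe set had to differ by more than that for its interval to leave out 0. For a single probe set, an exact permutation test on the ranks of 3 arrays against 2 cannot go below a two-sided p of 0.2.

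The arrays of a group were no closer to each other than to the arrays of the other group. The median absolute difference was 0.83 between the 2 Cont arrays, and 0.88, 0.90 and 0.84 between the Drago arrays. Between a Cont and a Drago array it ran from 0.83 to 0.89. The mean over the 6 pairs across groups was 0.858 and over the 4 pairs within groups 0.862, a ratio of 0.995. Drago 1 had the widest spread of the 5 arrays, with an SD of 1.11 against 1.0 to 1.04 for the others, and the 4 pairs that hold it had the 4 highest distances. Neither group therefore formed a cluster of its own when all probe sets were weighed alike.

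**Figure D1:**
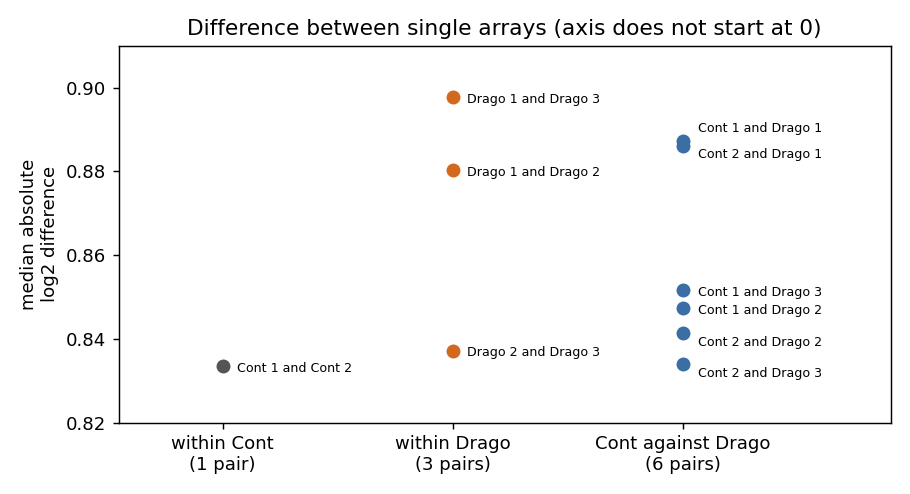
Each point is the median absolute log2 difference over 15491 probe sets between 2 single arrays, within Cont, within Drago, or across the groups. The 6 pairs across groups, at 0.83 to 0.89, cover the same range as the pairs within groups, and the vertical axis does not start at 0.

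Over 5 fold lay 315 probe sets (2.03%), 173 higher (1.12%) and 142 lower (0.917%) in Drago, and 4303 lay over 2 fold (27.8%), 14.1% higher and 13.7% lower. The Drago mean lay above the Cont mean in 49.4% of probe sets. All 3 Drago arrays lay above both Cont arrays in 1541 probe sets (9.95%) and below both in 1525 (9.84%). There are 10 ways to choose 3 of 5 arrays. With no difference at all, each of these 2 outcomes is expected in 1 of 10 probe sets. The genes described next were taken from those with no overlap, as the 12 with a gene symbol and the smallest p in each direction. That the groups do not overlap in them follows from the way they were chosen, and so does the size of their differences. All 24 had an adjusted p of 0.601 in limma. Of the 24 genes, 15 had other probe sets on the array, of the same or the other copy. In 8 of the 15 at least 1 other probe set had the opposite sign. These were rrbp1.S, ranbp2.L, epb41.L, col4a2.L, rabgap1l.L, ube2r2, dnttip1.L and sdc2.S. In 7 all had the same sign, and 0 of the 24 other probe sets of the 15 genes lay over 5 fold the same way.

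Among the 12 leading transcripts that lay higher in Drago, the widest difference was that of lhx8.L, a LIM homeobox transcription factor. It stood at -3.42 and -2.74 in Cont and at 0.78, 0.79 and 0.43 in Drago, a difference of 3.75 ± 0.70 (SE, limma). The other 9 arrays lay between -2.29 and 0.58, so that Drago 1 and 2 lay slightly above them, Drago 3 within them and both Cont arrays below all others. A second probe set of lhx8.L differed by 0.53 ± 0.57. cdx4.L, a caudal-type homeobox factor of the posterior body axis, also had its Cont arrays apart. It stood at -2.71 and -2.78 in Cont and at 0.52, 0.24 and 0.12 in Drago, a difference of 3.04 ± 0.74, and the Cont arrays were the lowest of all 14. frzb.L, a secreted inhibitor that binds Wnt ligands, stood at -4.07 and -1.73 in Cont and at 0.57, 0.48 and -0.08 in Drago, a difference of 3.23 ± 0.76. The 2 Cont arrays of frzb.L were over 5 fold apart from each other. Its other copy, frzb.S, stood at -0.74 and -2.0 in Cont and at 0.79, 0.59 and -0.15 in Drago, a difference of 1.78 ± 0.78 (adjusted p = 0.85), also with no overlap.

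grem1.L differed from these in that Drago, not Cont, stood apart. Gremlin 1 is a secreted protein that binds BMP ligands and keeps them from their receptors. It stood at -0.29 and -0.20 in Cont and at 2.16, 2.25 and 1.42 in Drago, a difference of 2.19 ± 0.53 or 4.55 fold. The other 9 arrays lay between -0.48 and 0.50, so the 3 Drago arrays were the highest of 14 by a wide margin, while Cont lay inside the usual range. A probe set that has no symbol in the annotation used, and that the study lists as a laminin beta-1-like transcript, behaved in a similar way. Laminin beta-1 is a chain of the cross-shaped laminin trimers of basement membranes. This probe set stood at -1.12 and -1.72 in Cont and at 1.77, 1.96 and 1.24 in Drago, a difference of 3.08 ± 0.61, with the other 9 arrays between -2.06 and 1.08. All 3 Drago arrays were thus above every other array, and the adjusted p was 0.601. Both probe sets belong to the small set that the study chose on these arrays, which makes them no independent evidence of a direction.

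slc33a1.L, the transporter that brings acetyl-CoA into the endoplasmic reticulum, stood at -2.97 and -2.31 in Cont and at 0.45, 0.77 and 0.67 in Drago, a difference of 3.27 ± 0.67. gnptg.L, the gamma subunit of the enzyme that tags lysosomal hydrolases with mannose 6-phosphate, stood at -2.55 and -2.13 in Cont and at 0.47, 1.27 and 0.73 in Drago, a difference of 3.16 ± 0.68. For gnptg.L both groups stood apart, with Cont below and Drago above all other arrays, and its 2 other probe sets differed by 2.06 ± 1.17 and 0.70 ± 0.60. rrbp1.S, a ribosome-binding protein of the rough endoplasmic reticulum, stood at -3.17 and -2.19 in Cont and at 0.04, 0.53 and 0.45 in Drago, a difference of 3.01 ± 0.66. Here the 9 other arrays reached down to -2.47, so that 1 Cont array lay within them. ranbp2.L, a large protein of the cytoplasmic filaments of the nuclear pore, stood at -3.40 and -1.84 in Cont and at 0.10, 1.12 and -0.19 in Drago, a difference of 2.96 ± 0.71.

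The remaining 4 higher transcripts code for structural and membrane proteins and for a protease subunit. psma2.L, an alpha subunit of the proteasome core, stood at -1.90 and -1.33 in Cont and at 2.02, 0.83 and 1.61 in Drago, a difference of 3.10 ± 0.77. entpd1.L, an enzyme of the cell surface that breaks down extracellular ATP, stood at 0.09 and -1.91 in Cont and at 2.35, 2.41 and 1.77 in Drago, a difference of 3.09 ± 0.77. In both, 9 other arrays spanned much of the same range, from -1.92 to 1.91 for psma2.L and from -0.52 to 1.97 for entpd1.L. epb41.L, protein 4.1 of the membrane skeleton, stood at -1.66 and -2.10 in Cont and at 1.19, 1.91 and 0.98 in Drago, a difference of 3.24 ± 0.82. col4a2.L, the alpha-2 chain of basement membrane collagen, stood at -1.56 and -2.30 in Cont and at 1.35, 0.13 and 1.62 in Drago, a difference of 2.96 ± 0.76. The Cont arrays of both were the lowest of the 14.

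Among the 12 leading transcripts that lay lower in Drago, atp6v0e1.L had the widest difference. It codes for a small membrane subunit of the proton pump that acidifies endosomes and lysosomes. It stood at 2.02 and 1.41 in Cont and at -1.87, -2.59 and -2.10 in Drago, a difference of -3.91 ± 0.97, and the 3 Drago arrays were the lowest of the 14. clpp.L, the protease core of the mitochondrial matrix, stood at 2.29 and 2.16 in Cont and at -1.46, -1.12 and -1.85 in Drago, a difference of -3.70 ± 0.80. The other 9 arrays of clpp.L lay between -0.96 and 1.63, with every Cont array above and every Drago array below them. glcci1.L, named as a transcript that glucocorticoids induce in mammalian cells, shared this shape at smaller size. It stood at 1.65 and 2.54 in Cont and at -0.47, -0.26 and -0.34 in Drago, a difference of -2.45 ± 0.59. gnptg.L, clpp.L and glcci1.L were the 3 probe sets of the 315 over 5 fold in which both groups stood outside all other arrays.

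rfc3.L, a subunit of the clamp loader at the replication fork, stood at 1.66 and 1.80 in Cont and at -1.18, -1.01 and -1.06 in Drago, a difference of -2.81 ± 0.75. wdhd1.L, which couples helicase and polymerase at the fork, stood at 2.69 and 3.07 in Cont and at -0.73, -0.97 and 0.59 in Drago, a difference of -3.25 ± 0.87. The Drago arrays of rfc3.L were the lowest of all, while for wdhd1.L it was the Cont arrays that stood out, above all others. upf2.S, a factor of nonsense-mediated mRNA decay, stood at 2.52 and 1.25 in Cont and at -1.17, -0.60 and -1.34 in Drago, a difference of -2.92 ± 0.77. tma16.L, a protein that in yeast associates with the translation machinery, stood at 2.57 and 2.59 in Cont and at -0.85, -0.12 and -1.78 in Drago, a difference of -3.50 ± 0.86. dnttip1.L, a partner of a histone deacetylase complex, stood at 3.0 and 2.46 in Cont and at -1.30, -0.02 and -0.93 in Drago, a difference of -3.48 ± 0.92. The 9 other arrays of dnttip1.L ran from -1.81 to 2.84, a wider span than that of the 5 compared, and its 5 other probe sets, of both copies, differed by -1.21 to 0.25.

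The last 4 of the lower transcripts act in trafficking, ubiquitination, digestion and cell adhesion. rabgap1l.L, which switches off Rab GTPases of vesicle traffic, stood at 2.60 and 2.11 in Cont and at -0.12, -0.95 and -1.08 in Drago, a difference of -3.07 ± 0.68. ube2r2, a ubiquitin-conjugating enzyme, stood at 1.03 and 0.08 in Cont and at -2.76, -1.79 and -1.66 in Drago, a difference of -2.62 ± 0.66. The Drago arrays of ube2r2 lay below all others, the lowest of which was at -1.13. cel.2.L, a bile salt-activated lipase of the pancreas, stood at 2.14 and 2.77 in Cont and at 1.25, -0.03 and -1.24 in Drago, a difference of -2.46 ± 0.67. Its 3 Drago arrays were spread over more than 5 fold. sdc2.S, syndecan-2, a heparan sulfate proteoglycan of the cell surface, stood at 0.82 and 0.54 in Cont and at -1.96, -1.51 and -1.80 in Drago, a difference of -2.44 ± 0.65, with Drago below all other arrays.

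**Figure D2:**
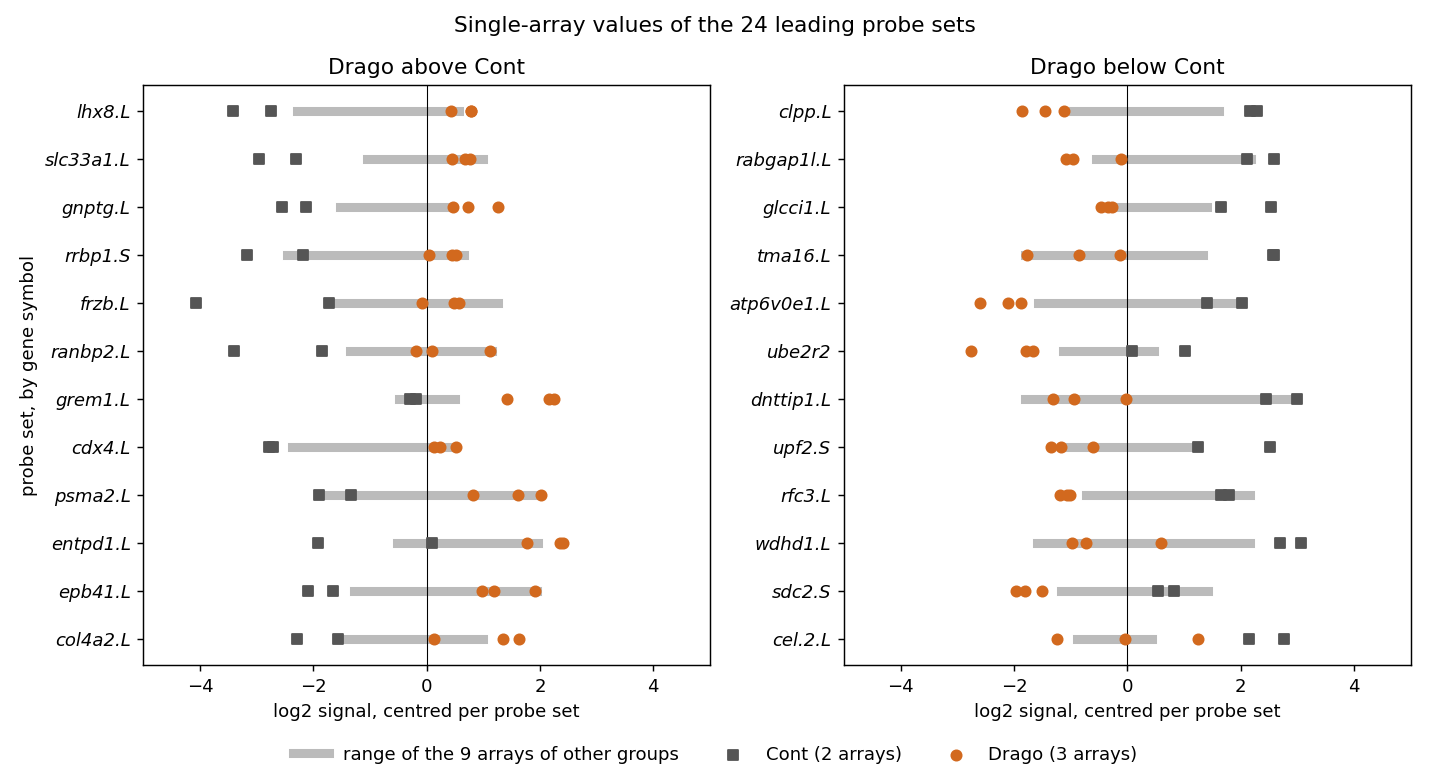
Single-array values of the 12 higher and 12 lower leading probe sets, as log2 signal centred per probe set, with squares for the 2 Cont arrays, circles for the 3 Drago arrays and a grey bar for the range of the 9 arrays of other treatments. In some rows, such as frzb.L and wdhd1.L, both Cont squares lie outside the grey bar and the Drago circles within it, while grem1.L, rfc3.L and sdc2.S show the reverse.

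The 9 arrays of other treatments give the position of each group among arrays from predator-exposed tadpoles, and cannot tell whether a Cont array apart from them is unusual or all exposed tadpoles moved together. Among the 315 probe sets over 5 fold, the Cont mean was farther from 0 than the Drago mean in 206 (65.4%), against 8322 of all 15491 (53.7%). Both Cont arrays lay outside all 12 other arrays in 75 of the 315 (23.8%), and all 3 Drago arrays lay outside the 11 others in 15 (4.76%). Both held in 3 of them, and in most of the 315 neither group stood apart. Over all probe sets the shares were 2.16% and 0.620%. A mean of 2 arrays varies more than a mean of 3, and 2 arrays lie outside all others more readily than 3 do. A difference in these shares is therefore not by itself a property of the treatment. Among the 24 leading genes, Cont stood apart in 8 of the higher and 6 of the lower ones, and Drago in 2 of the higher (gnptg.L and grem1.L) and 6 of the lower ones (clpp.L, glcci1.L, atp6v0e1.L, ube2r2, rfc3.L and sdc2.S). In all, 96 probe sets had their 3 Drago arrays outside the other 11, of which 50 were above and 46 below.

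Lists of genes by function and by cell type, 25 in all, were set against all probe sets tested, of which 5.65% passed the nominal level and 19.8% had all Drago arrays on one side of both Cont arrays. The median difference over all probe sets was -0.0139. In none of the 25 lists did a probe set pass limma's adjusted p. The counts at the nominal level describe the lists and are no calls. The lists were drawn up with earlier results of these data known, and several hold genes that the study had picked on these arrays. Of 80 further probe sets chosen as those with the largest moderated statistics of their lists, 46 had other probe sets of the same gene. In 27 of the 46 at least 1 of these had the opposite sign, in 7 of them with groups that do not overlap, so a value below is that of the probe set described and not of the gene.

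Genes of the matrix and of adhesion had members far apart in both directions. The basement membrane list was read by 11 probe sets of 6 genes (col4a1, col4a2, col18a1, nid2, sparc and dag1), with no laminin among them, and had a median difference of 0.06. Of these, 2 had all Drago arrays above Cont (18.2%), col4a2.L and sparc.S. sparc.S, a collagen-binding protein of the basement membrane, stood at -0.66 and -0.73 in Cont and at -0.39, -0.10 and 1.59 in Drago, a difference of 1.06 ± 0.86, and only Drago 3 lay far from Cont. Interstitial matrix and its proteases (31 probe sets, median 0.23) had 3 members higher and 3 lower at the nominal level (19.4%). All Drago arrays lay above Cont in 1 of its probe sets and below in 3 (12.9%), under the 19.8% of all probe sets. timp2.S, an inhibitor of matrix metalloproteinases, stood at 0.55 and 0.01 in Cont and at -2.93, -1.45 and -1.5 in Drago, a difference of -2.25 ± 0.71 (adjusted p = 0.801), with Drago below all other arrays. mmp3.L, a metalloproteinase that cuts proteoglycans and other matrix proteins, stood at -2.66 and -0.53 in Cont and at 0.44, 2.57 and -0.74 in Drago. Its difference of 2.35 ± 1.02 came with overlapping groups, since Drago 3 lay below Cont 2. col3a1.S, a fibrillar collagen chain of stretchable tissue, stood at -1.14 and -1.13 in Cont and at 0.02, 0.58 and 0.68 in Drago, a difference of 1.56 ± 0.54, while its other probe sets differed by 1.28 ± 0.94 and -0.11 ± 0.63. vcan.L, the large proteoglycan versican, stood at 0.71 and 0.47 in Cont and at -0.44, -1.26 and -0.50 in Drago, a difference of -1.32 ± 0.56. Fibrillar collagens did not lie on 1 side, since a probe set of col1a1.S differed by -1.41 ± 0.63, with all Drago arrays below Cont, and another by 0.38 ± 0.53.

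The list of syndecans, integrins and adhesion had 51 probe sets and a median difference of -0.15. Of these, 3 had all Drago arrays above and 6 below Cont (17.6%), and 3 passed the nominal level (5.88%), close to the shares of all probe sets. Another syndecan, sdc1.L, stood at 0.98 and 0.29 in Cont and at -1.27, -0.60 and -0.68 in Drago, a difference of -1.49 ± 0.54 (adjusted p = 0.808). Like sdc2.S, it had its Drago arrays below all 11 others. The syndecans did not lie on 1 side. Probe sets of sdc4.L differed by 1.21 ± 0.82, 0.39 ± 1.15 and 0.79 ± 0.64, the last with all Drago arrays above Cont. sdc3.L differed by 0.78 ± 0.72 and sdc4.S by -0.21 ± 1.03, and those of sdc2.L are given below. itgav.L, the alpha-V integrin chain that binds vitronectin and fibronectin, stood at -1.52 and 0.12 in Cont and at 1.96, 0.47 and 1.78 in Drago, a difference of 2.10 ± 0.82, and by -0.42 ± 0.62 in its other probe set.

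The nuclear lamina, the mesh of lamin filaments beneath the nuclear envelope, had 20 probe sets with a median difference of 0.30. At the nominal level 3 passed, all higher (15.0%), against 5.65% of all probe sets. In 4 of them all Drago arrays lay above Cont and in 0 below (20%), close to the 19.8% of all probe sets. The 4 were both copies of the B-type lamins lmnb1 and lmnb2, while another B-type lamin, lmnb3.L, differed by -0.61 ± 0.75 with overlapping groups. lmnb1.L stood at -1.66 and -1.16 in Cont and at 1.11, 1.01 and 1.14 in Drago, a difference of 2.49 ± 0.91 (adjusted p = 0.808). lmnb1.S stood at -3.43 and -1.82 in Cont and at 0.25, 0.15 and -1.46 in Drago, a difference of 2.27 ± 0.86 (adjusted p = 0.818). lmnb2.L stood at -1.83 and -1.47 in Cont and at 2.99, -0.16 and 0.97 in Drago, a difference of 2.92 ± 1.15 (adjusted p = 0.837). In lmnb2.S, at -1.26 and -1.60 in Cont and 0.58, -0.50 and -1.20 in Drago, Drago 3 lay just above Cont 1, and the difference was 1.05 ± 1.02. Lamins line the nucleus and are unrelated to the laminins of the basement membrane. banf1.L, which bridges chromatin and the lamina, lay the other way at -2.06 ± 1.18, with overlapping groups.

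In BMP signalling, 37 probe sets had a median difference of -0.02, and 2 passed the nominal level, both higher (5.41%). They were grem1.L and the receptor bmpr1a.S, which stood at -1.22 and -2.30 in Cont and at -0.41, 1.08 and 0.36 in Drago, a difference of 2.10 ± 0.79 (adjusted p = 0.818). The 3 probe sets of bmpr1a.L differed by -0.10 ± 1.02 to 1.81 ± 1.13. fst.L, follistatin, another secreted inhibitor of the family, stood at -0.65 and -0.54 in Cont and at 0.09, 0.93 and 0.53 in Drago, a difference of 1.11 ± 0.58. smad1.S, which carries the BMP signal to the nucleus, stood at 0.09 and 2.07 in Cont and at -0.09, -0.75 and -0.38 in Drago, a difference of -1.48 ± 0.70. The Cont arrays of smad1.S were themselves nearly 2 apart on the log2 scale.

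Wnt signalling (47 probe sets, median -0.22) had 2 members higher and 1 lower at the nominal level (6.38%). The 2 higher ones were both copies of frzb. The lower one was sfrp5.L, a secreted inhibitor of the same frizzled-related family, at 1.33 and 0.82 in Cont and at -0.92, -0.40 and -0.65 in Drago, a difference of -1.73 ± 0.55 (adjusted p = 0.801). Secreted Wnt inhibitors thus stood on both sides. The receptor fzd7.L stood at 0.67 and 0.06 in Cont and at -1.14, -2.19 and -0.06 in Drago, a difference of -1.5 ± 0.82, in 1 of its 5 probe sets. The other 4 differed by -0.98 ± 0.88 to 0.51 ± 0.72, and in the last of these all Drago arrays lay above Cont. FGF ligands, receptors and feedback (25 probe sets, median 0.16) had 1 member on each side at the nominal level (8.00%). frs2.L, the adaptor that docks on FGF receptors, stood at -0.81 and -1.09 in Cont and at -0.10, 1.80 and 0.62 in Drago, a difference of 1.72 ± 0.69. The other member, fgf8.L, was read by 3 probe sets that did not give 1 direction. The first stood at 1.91 and 1.78 in Cont and at -0.78, 0.44 and -1.44 in Drago, a difference of -2.44 ± 0.87 (adjusted p = 0.808). The others differed by 0.75 ± 0.76 and by -0.72 ± 0.73. fgfr1.L, the receptor, differed by 0.70 ± 0.93.

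Oxygen sensing and vessels were read by 30 probe sets with a median difference of 0.33, the highest of the 25 lists. At the nominal level 1 lay higher and 2 lower (10%). hif1a.L, the oxygen-sensitive transcription factor, has 2 probe sets. In the first, Drago stood at 2.76, -0.06 and 0.45 and Cont at 0.06 and -1.12, a difference of 1.58 ± 1.04 (95% interval -0.64 to 3.8) with overlapping groups, Drago 1 being the highest of the 5 arrays and Cont 2 the lowest. The second differed by 0.39 ± 0.61. epas1.L, its relative in endothelium, stood at 1.10 and 1.27 in Cont and at 0.65, -1.77 and -1.86 in Drago, a difference of -2.18 ± 0.82 (adjusted p = 0.817), while epas1.S differed by 0.91 ± 0.91. egln3.L, a prolyl hydroxylase that marks these factors for destruction, stood at -1.06 and -0.28 in Cont and at 0.84, 0.56 and 1.35 in Drago, a difference of 1.59 ± 0.65 in 1 probe set. Another of egln3.L differed by -0.74 ± 0.58 and that of egln3.S by -0.41 ± 0.65, both with all Drago arrays below Cont, and the remaining one of egln3.L by 0.32 ± 0.73. bnip3.S, a mitochondrial protein known as a target of these factors in mammalian cells, stood at 0.01 and 1.0 in Cont and at -1.16, -1.42 and -2.21 in Drago, a difference of -2.10 ± 0.83. The targets and regulators of this pathway therefore did not lie on 1 side.

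Apoptosis genes (27 probe sets, median -0.04) had 3 members higher and 1 lower at the nominal level (14.8%). xiap.L, an inhibitor that binds caspases, stood at -2.88 and -2.21 in Cont and at 0.06, 0.41 and 0.01 in Drago, a difference of 2.71 ± 0.79 (adjusted p = 0.705). birc2.L, a related inhibitor, stood at -0.23 and -1.63 in Cont and at 1.24, 0.42 and 1.5 in Drago, a difference of 1.98 ± 0.88 (adjusted p = 0.85). casp9.S, the initiator caspase of the mitochondrial route, stood at 0.08 and 0.34 in Cont and at -1.52, -2.07 and -2.77 in Drago, a difference of -2.33 ± 0.97 (adjusted p = 0.839). The groups of these 3 probe sets did not overlap, while birc2.S differed by -0.32 ± 1.13. For api5, another inhibitor of cell death, the 3 probe sets parted. One of api5.S stood at -1.49 and -1.78 in Cont and at 0.69, 1.53 and 0.60 in Drago, a difference of 2.58 ± 0.86, while another of api5.S differed by 0.08 ± 0.65 and that of api5.L by -0.24 ± 0.91.

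The proteasome list (51 probe sets, median 0.03) had 2 members higher and 1 lower at the nominal level (5.88%), close to the 5.65% of all probe sets. Besides psma2.L, adrm1.L, the ubiquitin receptor of the regulatory cap, stood at -1.90 and -3.14 in Cont and at -1.20, 0.01 and 0.79 in Drago, a difference of 2.39 ± 0.85 (adjusted p = 0.808). Both probe sets of adrm1.S lay near 0, at 0.02 ± 0.57 and 0.26 ± 0.51. psmd12.S, a scaffold subunit of the cap, stood at 1.39 and 1.65 in Cont and at -0.24, -1.33 and -0.50 in Drago, a difference of -2.21 ± 0.73 (adjusted p = 0.803). Subunits of 1 complex were therefore read in opposite directions.

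Genes of cell division gave the highest share of members at the nominal level among the 25 lists. Of 52 probe sets of the mitotic spindle and centrosome (median 0.28), 8 lay higher and 3 lower at the nominal level (21.2%), and 12 had all Drago arrays above and 7 below Cont (36.5%). This list holds tpx2, cetn3 and dlgap5, of which the study had picked probe sets on these same arrays. Its share is therefore no independent evidence. tpx2.L, which activates the spindle kinase Aurora A, stood at -1.94 and -2.06 in Cont and at 1.07, 2.03 and 1.47 in Drago in 1 of its probe sets, a difference of 3.52 ± 1.18 (adjusted p = 0.808). In the other it differed by 0.82 ± 0.77, and tpx2.S differed by -0.48 ± 0.74. smc3.L, a ring subunit of cohesin, stood at -1.30 and -1.49 in Cont and at 0.98, 1.01 and 0.99 in Drago, a difference of 2.39 ± 0.71 (adjusted p = 0.733), and by -0.82 ± 0.98 in its other probe set. dlgap5.S, a microtubule-binding protein of the spindle, stood at -0.89 and -1.53 in Cont and at 0.55, 0.12 and 0.49 in Drago, a difference of 1.60 ± 0.54 (adjusted p = 0.808). The other probe set of dlgap5.S went the opposite way, by -1.75 ± 0.85, with all Drago arrays below Cont. tacc3, a spindle protein that works with Aurora A, lay higher in the probe sets of both Xenopus laevis copies, with differences of 2.13 ± 0.85 for tacc3.L and 1.98 ± 0.69 for tacc3.S. cetn3.L, a centriole calcium-binding protein, stood at -2.12 and 0.16 in Cont and at 1.26, 1.58 and 1.77 in Drago, a difference of 2.51 ± 1.04, and cetn3.S differed by 0.73 ± 0.61. cenpm.L, a kinetochore protein, lay the other way at -2.58 ± 0.83 (adjusted p = 0.801), from 2.45 and 1.49 in Cont and -0.48, -1.42 and 0.06 in Drago.

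The DNA replication list was near the background in its share of probe sets without overlap. Of its 45 probe sets (median -0.06), 1 had all Drago arrays above and 8 below Cont (20%), and 1 lay higher and 5 lower at the nominal level (13.3%). Besides wdhd1.L and rfc3.L, chaf1a.L, a histone chaperone of the fork, stood at 1.23 and 1.42 in Cont and at -1.74, -0.25 and 0.65 in Drago, a difference of -1.77 ± 0.79 (adjusted p = 0.85). mcm7, a subunit of the replicative helicase, was read in opposite directions by its copies. mcm7.S stood at 2.02 and 1.68 in Cont and at -1.56, -1.98 and 1.93 in Drago, a difference of -2.39 ± 0.91, and mcm7.L stood at -1.54 and -1.99 in Cont and at -0.85, 0.27 and 1.27 in Drago, a difference of 2.0 ± 0.90. The shares of the spindle and replication lists were not tested against each other.

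The hormones of stress and metamorphosis (30 probe sets, median 0.11) had 2 members on each side at the nominal level (13.3%). Tadpoles respond to predators through corticosteroids, which act on a glucocorticoid and a mineralocorticoid receptor. nr3c1.L, the glucocorticoid receptor, stood at -2.90 and -1.48 in Cont and at 0.21, 0.30 and -0.28 in Drago, a difference of 2.27 ± 0.97 (adjusted p = 0.85). nr3c2.L, the mineralocorticoid receptor, stood at 0.42 and 1.04 in Cont and at -3.03, -0.03 and -2.99 in Drago, a difference of -2.75 ± 0.96 (adjusted p = 0.808). In nr3c1.S, the other copy of the glucocorticoid receptor, 1 probe set differed by 1.29 ± 1.36 with all Drago arrays above Cont and another by -0.46 ± 0.53 with all below, and Drago 2 of nr3c2.L was within 0.5 of a Cont array. trh.S, the precursor of thyrotropin-releasing hormone, stood at -2.02 and -1.19 in Cont and at 1.62, 1.83 and -0.11 in Drago, a difference of 2.72 ± 0.96. rbp4.S, the carrier of vitamin A in blood, stood at 1.26 and 1.85 in Cont and at -2.23, -1.92 and 0.41 in Drago, a difference of -2.80 ± 0.89, and rbp4.L differed by 0.69 ± 0.92.

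The remaining lists by function lay near or below the 5.65% of all probe sets in their share at the nominal level. Cytosolic ribosomal proteins, 82 probe sets with a median difference of -0.02, had 2 members at the nominal level (2.44%), rpl5.S at 2.5 ± 1.09 and rpl4.L at 1.81 ± 0.66. Heat shock proteins and chaperones, 55 probe sets with a median of -0.07, had 3 (5.45%). hspa8.L, the constitutive 70 kDa-class chaperone, stood at -1.53 and -2.98 in Cont and at -1.30, 0.10 and 0.86 in Drago, a difference of 2.14 ± 0.70 (adjusted p = 0.801). hspb1.S, a small heat shock protein, stood at 0.45 and 0.35 in Cont and at -1.62, -1.11 and -1.86 in Drago, a difference of -1.93 ± 0.72 (adjusted p = 0.817), so that chaperones too were found on both sides. Mitochondrial respiration, 43 probe sets with a median of -0.21, had 1 member higher and 2 lower (6.98%), led by cox7a2.S at -1.74 ± 0.75 and sdhb.S at 1.97 ± 0.86. Cilia and intraflagellar transport, 18 probe sets with a median of -0.11, had 1, the kinesin kif3a.L at -2.08 ± 0.73 (5.56%). Ion and water transport, 28 probe sets with a median of 0.20, had 6 members with all Drago arrays above and 4 below Cont. That share of 35.7% lay above the 19.8% of all probe sets, but only 1 member passed the nominal level (3.57%). That member was atp1b3.S, a beta subunit of the sodium pump, at -1.12 and -0.56 in Cont and -0.08, 1.86 and 1.72 in Drago, a difference of 2.01 ± 0.74. The other probe set of atp1b3.S differed by -0.91 ± 0.65 and atp1b3.L by -0.52 ± 0.57, both with all Drago arrays below Cont.

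Markers of the cell types that a tail can hold were read to describe the tissue make-up of the 5 arrays. Over 48 probe sets of skeletal muscle the median difference was -0.16, and the median value ran from -0.17 to -0.01 over the Drago arrays against 0.02 and -0.01 in Cont. Epidermis (35 probe sets) had a median difference of 0.09, nerve and spinal cord (32) of -0.05, and blood and immune cells (19) of -0.10. Notochord and cartilage (8) stood at 0.09 and endothelium (13) at -0.25. Erythrocyte genes (18 probe sets) had the lowest median of all 25 lists, -0.66. The median of the erythrocyte list was 0.30 and -0.05 in Cont and -0.26, 0.06 and -0.41 in Drago, so that the groups overlap. Of its members 3 had all Drago arrays above and 5 below Cont (44.4%), and the 2 at the nominal level both lay higher (11.1%). Those were epb41.L and a globin chain, hba3.L, which stood at -1.04 and -0.90 in Cont and at 1.62, 1.43 and 0.23 in Drago, a difference of 2.06 ± 0.96. A second globin, hba-l5.L, differed by -1.26 ± 0.82. The other probe sets of epb41.L differed by -1.20 ± 1.01, -0.14 ± 0.88 and 1.01 ± 0.81. The part of tissue make-up in the differences of single genes was not tested.

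Within the marker lists some genes lay far apart. irf1.L, an interferon-responsive transcription factor, stood at 2.74 and 3.04 in Cont and at -0.25, -0.37 and 0.56 in Drago, a difference of -2.91 ± 0.83 (adjusted p = 0.646), and the Cont arrays were the highest of the 14. ptprc.L, the surface phosphatase CD45 of white blood cells, stood at 1.0 and 0.37 in Cont and at -0.96, -0.57 and -0.97 in Drago, a difference of -1.53 ± 0.60. mpo.S, the peroxidase of granulocytes, lay the other way at 1.71 ± 0.78, and mpo.L differed by -1.49 ± 0.89. The immune list therefore had members on both sides, 1 higher and 2 lower at the nominal level (15.8%). col9a1.L, a collagen of notochord and cartilage, stood at -1.49 and -1.11 in Cont and at 0.12, 1.41 and 2.01 in Drago, a difference of 2.48 ± 0.80 (adjusted p = 0.801). Another collagen of that list, col9a2.L, differed by -0.85 ± 0.99 with overlapping groups. In the notochord list the Drago mean lay above Cont in 4 probe sets and below in 4. znf750.S, a regulator of epidermal differentiation, stood at 1.32 and 2.84 in Cont and at -0.60, -1.31 and -0.14 in Drago, a difference of -2.76 ± 1.02 (adjusted p = 0.808). ckm.L, muscle creatine kinase, stood at -0.35 and -0.08 in Cont and at 1.93, 0.56 and 1.75 in Drago, a difference of 1.63 ± 0.65, against -0.24 ± 0.53 and -0.17 ± 0.54 in its other probe sets. A probe set of myl1.L, a myosin light chain of fast muscle, differed by -2.11 ± 0.86 and myl1.S by 1.63 ± 0.90, both with overlapping groups. Other probe sets of myl1.L differed by 0.56 ± 0.97 and -0.37 ± 0.53. In the neural list sox2.L, a factor of neural progenitors, stood at 2.12 and 0.57 in Cont and at -0.18, -0.48 and -0.41 in Drago, a difference of -1.70 ± 0.68, and by 0.62 ± 1.18 in its other probe set. ncam1.S and tubb3.L of the same list differed by 1.94 ± 1.02 and 1.59 ± 0.83, both with overlapping groups. In the neural list the Drago mean lay above Cont in 16 probe sets and below in 16.

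**Figure D3:**
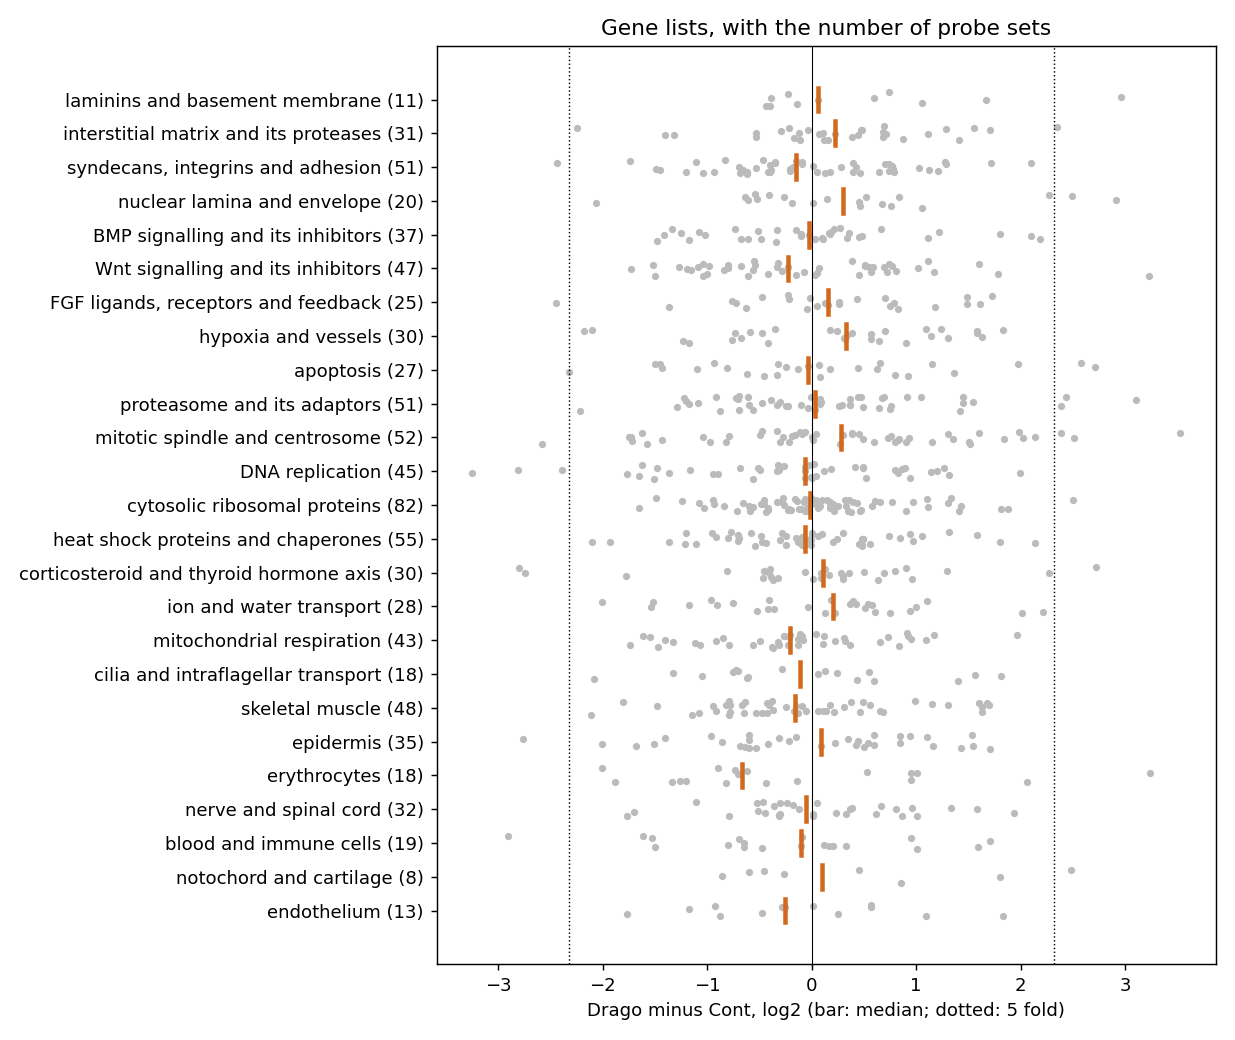
Difference between Drago and Cont on the log2 scale for every probe set of the 25 gene lists, with a bar at the median of each list and dotted lines at 5 fold. The medians lie between -0.66 (erythrocytes) and 0.33 (hypoxia and vessels), and most lists hold members far to either side.

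Genes that the study names in its text or lists for the dragonfly treatment were read by every probe set with that 1 symbol. These often parted. Probe sets with several symbols or none were not searched, apart from the laminin-like one. sdc2.S differed by -2.44 ± 0.65, whereas the 2 probe sets of sdc2.L differed by 1.02 ± 1.05 and -0.21 ± 0.59. col4a2.L differed by 2.96 ± 0.76 in 1 probe set and by -0.40 ± 0.81 in the other, where Cont stood at 0.52 and -0.07 and Drago at -0.20, -1.19 and 0.86. The intervals of the 2 col4a2.L probe sets, 1.35 to 4.58 and -2.13 to 1.34, do not meet. myo1c, a motor that links membranes to actin, had 7 probe sets with differences from -2.19 ± 1.03 to 2.52 ± 1.01. At the upper end, myo1c.L stood at -0.68 and -0.92 in Cont and at 3.35, -0.12 and 1.92 in Drago. The tropomyosins, which lie along actin filaments, differed by -0.09 ± 0.51 for tpm1.L, 1.68 ± 0.90 for tpm2.S and 0.13 ± 0.77 for tpm2.L. The values were -1.08 ± 1.15 for tpm3.L, -0.15 ± 0.75 for tpm3.S and -1.14 ± 0.89 for tpm4.L, and no tropomyosin lay over 5 fold. The study counts a tropomyosin among the genes lowered over 5 fold in its dragonfly treatment, and no probe set read here as a tropomyosin is that one. The junction proteins cdh3.S, C-cadherin of the frog embryo, and ctnna1.S, alpha-catenin, differed by -1.04 ± 0.81 and by 1.71 ± 0.94. Their other readings were smaller, at -0.39 ± 0.73 for cdh3.L and 0.64 ± 0.98 for another probe set of ctnna1.S. All probe sets of frzb, lmnb1, lmnb2, cetn3, adrm1 and hif1a had 1 sign, and those of sdc2, api5, fgf8, col4a2, tpx2 and myo1c had both. The shared sign says little where a value lies near 0, as for adrm1.S (0.02 ± 0.57 and 0.26 ± 0.51) and the second hif1a.L probe set (0.39 ± 0.61).

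**Figure D4:**
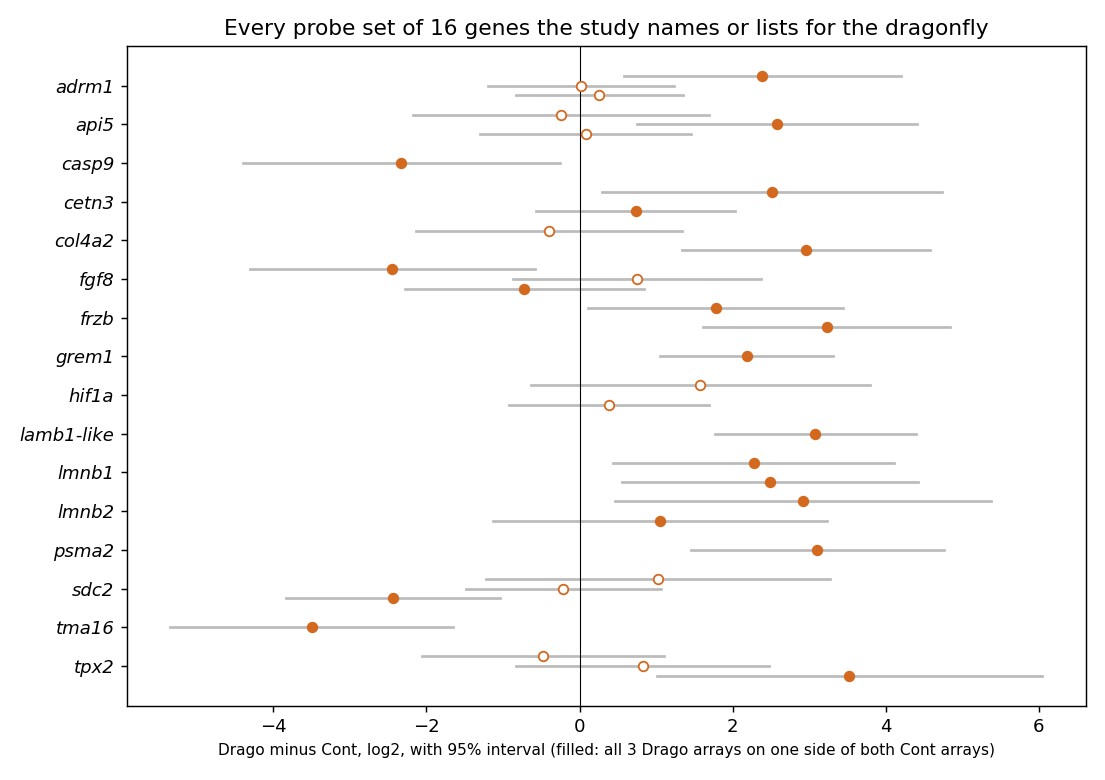
Difference between Drago and Cont on the log2 scale with its 95% interval for each probe set of 16 genes the study names or lists for the dragonfly, filled where all 3 Drago arrays lie on one side of both Cont arrays. Probe sets of frzb, lmnb1, lmnb2, cetn3, adrm1 and hif1a all lie to the right of 0, and those of sdc2, api5, fgf8, col4a2 and tpx2 lie on both sides.

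How well separate probe sets of a gene match can be asked across the whole array. In 976 pairs of probe sets that share a symbol, 50.4% of differences had the same sign, and in 748 pairs of .L and .S copies 51.6% did. Across these pairs, which share the same 5 arrays and are not independent replicates, Pearson's r was 0.041 and Spearman's rho 0.042 for pairs of a symbol, and 0.032 and 0.055 for copies. The 123 pairs designed on the same target sequence had 53.7% of equal signs and r of 0.056, against 49.9% and 0.037 in the 853 others. Readings of a gene were thus nearly unrelated. Of 40 pairs of a symbol with a probe set over 5 fold, 1 had both over 5 fold the same way, and of 27 pairs of copies 0 did. That pair was clk3.L, a kinase of splicing factors, at 2.79 ± 0.77 and 2.32 ± 0.92. In the first probe set it stood at -2.25 and -3.09 in Cont and at 0.84, -0.39 and -0.09 in Drago, and in the second at 0.00 and -3.05 in Cont and 1.14, 0.98 and 0.28 in Drago.

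In 8 of the 1724 pairs both probe sets passed the nominal level, which 5.65% of all single probe sets passed. Of the 8 pairs, 5 had the same direction and 3 opposite ones. These pairs were picked by their values, so the 5 are no evidence that readings of a gene match. The 5 were lmnb1 (2.49 and 2.27), frzb (3.23 and 1.78), clk3 (2.79 and 2.32), tacc3 (2.13 and 1.98) and, on the lower side, nkap, a transcriptional co-regulator, at -2.30 ± 1.01 and -1.96 ± 0.91. In tacc3 neither copy overlapped between groups: tacc3.L stood at -1.25 and -0.97 in Cont and at 1.60, 0.96 and 0.52 in Drago, and tacc3.S at -0.03 and -1.03 in Cont and at 1.99, 1.0 and 1.37 in Drago. nkap.S was less even, with a probe set at 1.39 and 0.72 in Cont and -2.64, 0.82 and -1.89 in Drago. The 3 opposite pairs were mcm7, nde1 and nubp1. nde1, a partner of dynein in dividing cells, differed by 1.94 ± 0.82 in nde1.L and by -2.21 ± 0.90 in nde1.S, and nubp1.S, an iron-sulfur cluster assembly factor, by 2.42 ± 0.68 and -1.87 ± 0.69.

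**Figure D5:**
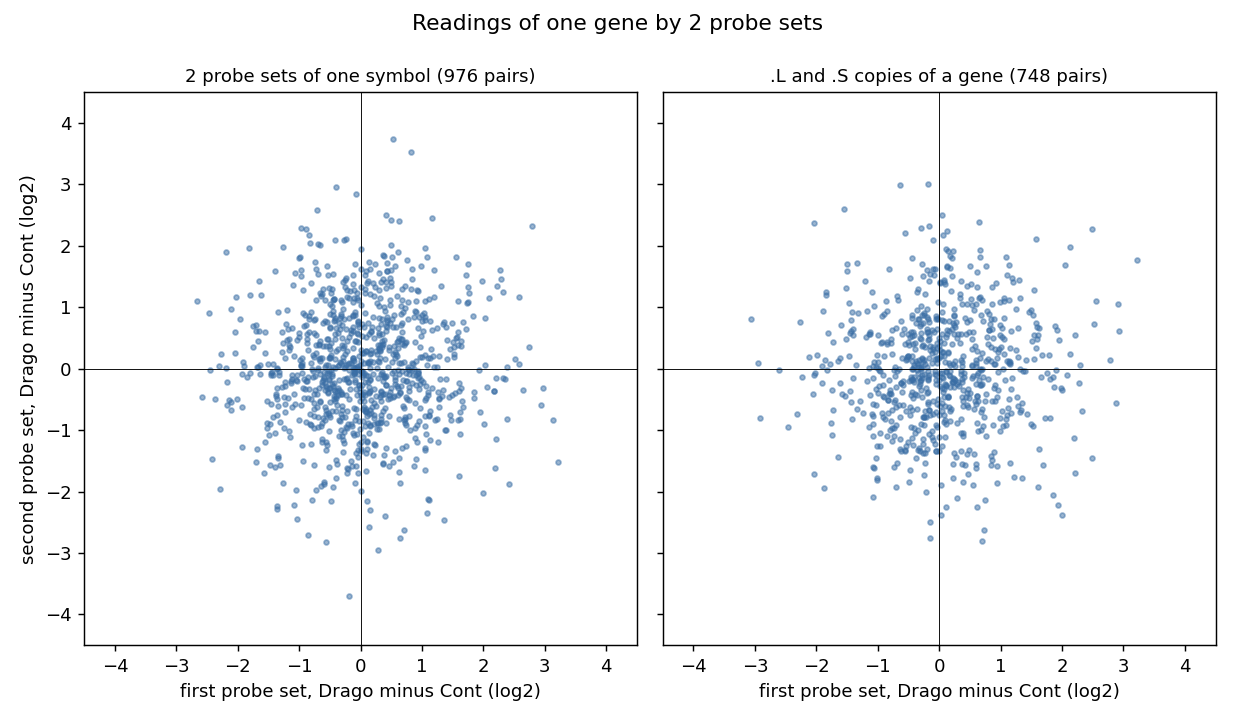
Difference between Drago and Cont on the log2 scale in 2 probe sets of the same gene, for 976 pairs that share a symbol (left) and 748 pairs of .L and .S copies (right), each point a pair. The points form a round cloud with 50.4% and 51.6% of equal signs.

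Dap, a control transcript added to the RNA before labelling, divided the arrays in a way that crosses the groups. The Dap control, from Bacillus subtilis, stood at a mean of 3.10 in Cont 1, 4.15 in Drago 1 and 3.33 in Drago 2, and at -0.96 in Cont 2 and -1.45 in Drago 3. Over the 14 arrays 6 were of the first kind and 8 of the second. On the 5 arrays compared, the Phe, Thr and Lys controls were also higher in the first kind. The Trp control was not, with Drago 3 at 0.47 above Cont 1 at 0.41 and Drago 2 at -0.09. Controls added at hybridization lay between -0.56 and 0.59 on the 5 arrays. Within the first kind frzb.L differed by 4.60 and within the second by 1.65, ranbp2.L by 4.01 and 1.65, cel.2.L by -1.53 and -4.01, and col4a2.L by 2.30 and 3.92. lhx8.L, at 4.20 and 3.17, clpp.L, at -3.58 and -4.01, grem1.L, at 2.49 and 1.61, and the laminin-like probe set, at 2.99 and 2.96, were closer. All 24 leading genes had the same direction in both kinds of array, as their choice fixes, with 2 Drago arrays against 1 Cont array in the first and 1 against 1 in the second, too few for a test.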

How the data were processed

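Total RNA of pooled tails was labelled and hybridized to Xenopus laevis genome arrays, and the submitters' notes name GCOS and MAS5. The values deposited by the authors are log2 signals centred per probe set on the median of the 14 arrays. No filter on low signals and no trend of the spread with signal could therefore be applied. The precision of each measured difference is limited by the number of arrays. A control array that the study left out for failed hybridization was not analysed here.

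In R 4.3.3, limma 3.58.1 was run on 15491 probe sets and 14 arrays with 1 mean per group, 9 residual and 5.53 prior degrees of freedom, and the contrast Drago minus Cont was adjusted by Benjamini-Hochberg over all probe sets (two-sided). Errors are standard errors of that fit and intervals are at 95%. Sharing the spread assumes that the other groups vary as Cont and Drago do. Folds are 2 to the power of the difference of log2 means. The annotation gave 1 symbol for 9304 probe sets, several for 195 and none for 5992, and names were taken only from the first kind, apart from the laminin-like probe set, which was named outside this rule after its values were seen. Genes named are the 12 of smallest p in each direction with groups that do not overlap, up to 4 per list by the size of limma's moderated statistic, and the genes the study names or lists for the dragonfly (mmp13 had no probe set of that exact symbol, and mmp13l was not counted as it). Pairs with both probe sets at the nominal level, and other probe sets of a named gene, were named after their values were seen. Members and lists were chosen with earlier results of these data known. The pipeline was tested on simulated data. Alternatives were quantile normalization, centring of arrays, the replicate number as a block, the 5 arrays alone, the Dap split as a term, robust estimation, an ordinary test, ratios of linear means, other folds, other probe set classes and leaving out each array.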

Additional observations from a re-analysis of the deposited data

How the results depend on the processing

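The count of 0 at an adjusted p of 0.05 held in limma under every alternative fit and with each array left out (0 to 0), and the smallest adjusted p was 0.0835, without Drago 3. At the unadjusted level the count ran from 794 to 971 when an array was left out. The 315 probe sets over 5 fold became 4303 at 2 fold and 15 at 10 fold, and 518 to 984 with an array left out, 849 without Cont 1 and 984 without Cont 2. Of the 315, 221 stayed over 5 fold the same way without Cont 1 and 236 without Cont 2. Non-overlapping groups numbered 5117 to 7663 with an array left out, 10299 among arrays with high Dap, and 15491 among those with low Dap, where 1 array meets 1. With fewer arrays more probe sets lie without overlap even with no difference at all. These counts therefore do not measure a dependence on the processing or on Dap. The correlation between probe sets of a gene, 0.0367 over 1724 pairs, ran from 0.00392 (without Cont 2) to 0.0483. With the replicate number as a block, 864 passed the unadjusted level and 0 the adjusted one, and of the 315 over 5 fold 265 remained. Over all probe sets Pearson's r was 0.00596 for Cont 1 and Drago 1 and -0.00636 for Cont 2 and Drago 2. Whether same-numbered arrays shared a step of processing was not tested.

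Among the named probe sets that turned sign with an array left out, 9 are given here with the limits of their values. They are not all that turned. A probe set whose Drago mean lies between its Cont arrays turns sign when 1 of these is dropped. Examples are a probe set of adrm1.S (Drago mean 0.19, Cont 0.60 and -0.26) and tpm2.L (Drago mean 0.31, Cont -0.44 and 0.80). Without Cont 1 the sign turned for sdc2.L (-0.21 to 2.26), a probe set of myo1c.L (-2.54 to 1.05), tpm3.S (-1.09 to 0.78) and tpx2.L (-0.40 to 2.05). Without Cont 2 it turned for api5.L (-1.78 to 1.30), sparc.L (-0.11 to 1.29), tubb3.L (-0.27 to 3.44) and sox18.S (-1.81 to 0.049), and without Drago 3 for another probe set of myo1c.L (-1.08 to 0.88). The 24 leading genes did not turn, as their choice fixes. The cause was not tested. Of the list medians under alternatives, 64 moved by more than the spread between replicates and 186 did not. The 2 Cont arrays are 1 limit on precision, and the relative weight of others was not compared.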
